A study of Mus musculus with 8 samples.

Results

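The transcription factor p53 (gene Trp53) and 9 genes that control it or are controlled by it were examined by RNA-seq in mouse embryonic stem cells (mESCs), pluripotent cells derived from the early embryo. The genes were taken by name: Trp53, its negative regulators Mdm2 and Mdm4, and the targets Cdkn1a, Ccng1, Bax, Pmaip1, Phlda3, Zmat3 and Trp53inp1. These are 10 of the 55291 gene symbols in the count tables, and all 10 were among the 16371 genes that passed the filter on low counts. In one line DHX35 and in the other GPATCH1, both factors of spliceosomal quality control, carried a dTAG, the FKBP12 F36V degron with a Flag epitope, through which the small molecule dTAG-13 marks a protein for degradation. Cells of each line received 200 nM dTAG-13 or its vehicle DMSO over 4 h, and each of the 4 groups holds 2 libraries, 8 in all. All libraries, the DMSO controls included, therefore come from cells with an edited locus, and an untagged line given dTAG-13 was not analysed here. The edited lines were expanded from picked single colonies after puromycin selection, and the sample labels do not say which clone was sequenced. The labels call the cells E14, whereas the growth protocol in the same labels speaks of R1 cells. The labels do not state whether the 2 libraries of a group come from separate cultures, so the p-values measure the spread between libraries, which may be technical.

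In unstressed cells, p53 protein is kept low because MDM2, an E3 ubiquitin ligase, marks it for degradation, while the related protein MDM4 mainly blocks its transactivation domain. When DNA damage, ribosomal stress or failing RNA processing releases p53, it binds paired decamer elements near its target genes and raises their transcription, Mdm2 included, which closes a negative feedback loop. Because p53 is controlled mostly at the protein level, its activity is usually read from the mRNAs of its targets. Mouse embryonic stem cells express Trp53 mRNA at high levels. Splicing of Mdm2 and Mdm4 is known to respond to defects of the spliceosome, but gene counts merge all isoforms, and exon usage was not measured here.

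The libraries held between 12014203 and 14994173 counts, of which the 10 genes took 17647 to 26377, or 0.134% to 0.177%. The 10 embryonic stem cell markers tested, among them Pou5f1 and Nanog, summed to 5730 to 6409 CPM (counts scaled to the library size, with TMM factors) per library. The 10 markers of differentiated cells summed to 18.4 to 24.3 CPM and the 8 markers of fibroblasts or feeder cells to 2.56 to 5.76 CPM, with Lum, Postn and Fap at 0 in every library. The Dhx35 mRNA lay between 72.3 and 84.8 CPM in DHX35-dTAG cells and between 58.1 and 64.9 CPM in GPATCH1-dTAG cells. The Gpatch1 mRNA lay between 23.2 and 25.6 CPM in DHX35-dTAG cells and between 6.90 and 7.31 CPM in GPATCH1-dTAG cells. Degradation acts on the proteins, so these mRNA levels do not show the depletion. The DMSO libraries of GPATCH1-dTAG cells were already at 7.31 and 6.90 CPM of Gpatch1, so GPATCH1 depletion is measured against controls low in this mRNA. The library of replicate 1 in the DMSO group of DHX35-dTAG cells was unlike the other 7. Its mean correlation with them was 0.976, against 0.988 to 0.990 for the others, its share of small RNA genes was 0.426% against 0.131% to 0.158%, and its share of mitochondrial mRNA was 0.272% against 0.758% to 1.13%. Gm23935 and CT010467.1, which held the most counts of all genes, took 12.0% and 20.2% of the counts in the dTAG-13 libraries of DHX35-dTAG cells and 20.9% in the second DMSO library of GPATCH1-dTAG cells, against 1.27% to 4.23% in the other 5. Their share thus rose with treatment in DHX35-dTAG cells. In GPATCH1-dTAG cells it was lower with treatment without overlap, at 4.23% and 20.9% in DMSO and 1.27% and 2.02% in dTAG-13. With both genes removed before the fit, the median log2 fold changes of the 10 genes were -0.09 on DHX35 depletion and 0.01 on GPATCH1 depletion. Values that change sign or call without the first DMSO library of DHX35-dTAG cells are given beside the result.

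Neither depletion moved any of the 10 genes past the threshold with all 8 libraries and TMM factors. On DHX35 depletion, adjusted p-values of the 10 genes lay between 0.715 and 0.936 and on GPATCH1 depletion all were 1 (quasi-likelihood test of edgeR, adjusted over 16371 genes by Benjamini-Hochberg). The background was also empty, since 0% of the 16371 genes passed an adjusted p of 0.05 on depletion of DHX35 and 0% on that of GPATCH1. At an unadjusted p under 0.05, 0 of the 10 genes passed in either line, while 5.39% of all genes did on DHX35 depletion and 2.97% on GPATCH1 depletion. DESeq2 called 0 of the 10 genes in either line, against 1 and 0 of all genes, and limma-voom with sample quality weights 0 of the 10, against 0 genes on DHX35 depletion and 35 (0.214%) on GPATCH1 depletion. Without TMM factors Phlda3 passed on DHX35 depletion (-0.66, adjusted p = 0.0489 by edgeR). In that fit 1.95% of all genes passed, and their median was -0.25. The 10 genes' median log2 fold change was -0.09 on DHX35 depletion, with 2 of 10 above 0, and 0.02 on GPATCH1 depletion, with 7 of 10 above 0. For all tested genes the medians were -0.01 and 0.00. The values of Cdkn1a, Ccng1, Pmaip1, Phlda3, Zmat3 and Trp53inp1 on GPATCH1 depletion, all between -0.04 and 0.07, turned sign with 1 library or another left out.

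What these libraries could resolve is given by the intervals. For all 10 genes the 95% interval of the log2 fold change lay within a 2-fold change in either direction (log2 between -1 and 1), in both lines. For 7 of 10 genes it lay within 0.5 on the log2 scale, and Bax, Pmaip1 and Phlda3 had the wider intervals. On GPATCH1 depletion those of Bax and Phlda3 were -0.22 to 0.56 and -0.45 to 0.60. They were 0.03 to 0.32 and -0.10 to 0.24 with the first DMSO library of DHX35-dTAG cells left out, so these widths depend on a library of the other line. The 2-fold bound did not hold under every setting. On DHX35 depletion the interval of Pmaip1 reached -1.09 with the first DMSO library of DHX35-dTAG cells left out, and without TMM factors those of Pmaip1 and Phlda3 reached -1.31 and -1.05, where the median of all genes was -0.25. Since RNA was taken from whole cultures, a smaller share of cells with an active p53 response and a weaker response in every cell cannot be told apart.

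**Figure D1:**
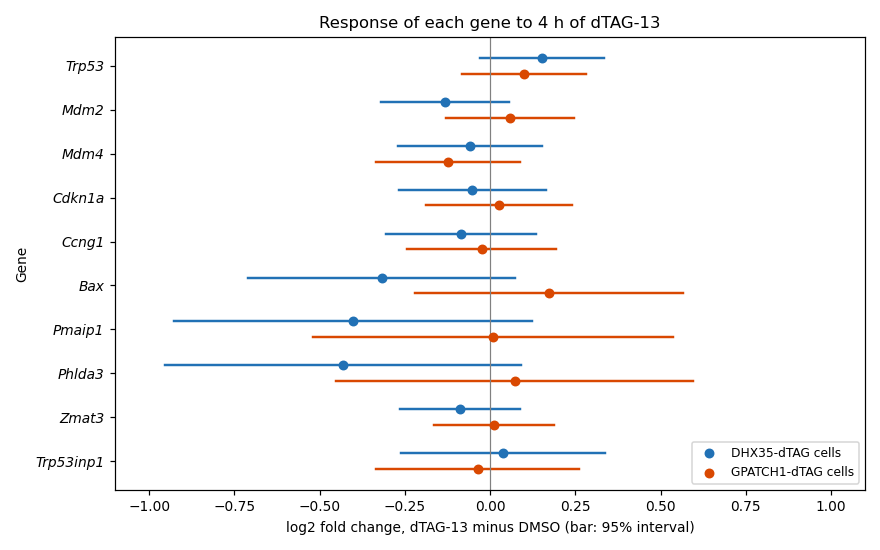
Log2 fold change of each gene (vertical axis) after dTAG-13 relative to DMSO (horizontal axis, log2 scale) from edgeR's quasi-likelihood fit over 8 libraries. Points are estimates and bars 95% intervals, blue for DHX35-dTAG and orange for GPATCH1-dTAG cells. All 20 intervals include 0 and lie between -1 and 1.

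Trp53 (ENSMUSG00000059552.13) lies on the plus strand of chr11:69580359-69591873 in GRCm38. Its mRNA level in DHX35-dTAG cells was 294 and 304 CPM in DMSO and 346 and 318 CPM in dTAG-13. In GPATCH1-dTAG cells it was 323 and 319 CPM in DMSO and 338 and 349 CPM in dTAG-13. The treated libraries thus lay above the DMSO libraries in both lines, without overlap. The log2 fold change was 0.15 (standard error 0.08, 95% interval -0.03 to 0.33) on DHX35 depletion, with an adjusted p of 0.715 by edgeR. It was 0.09 with the first and 0.22 with the second dTAG-13 library of DHX35-dTAG cells left out. On GPATCH1 depletion it was 0.10 (standard error 0.08, 95% interval -0.08 to 0.28), with an adjusted p of 1 by edgeR. Across both lines the log2 fold change was 0.13 (standard error 0.05, 95% interval 0.00 to 0.25), with an unadjusted p of 0.0452 and an adjusted p of 0.963 by edgeR, so this difference did not pass the threshold. Of the 10 genes, 1 (Trp53) passed the unadjusted threshold in this comparison, against 3.59% of all genes, and 0% of all genes passed the adjusted one. With sample quality weights (limma-voom), 1 higher gene (Trp53, 0.11) and 1 lower gene (Mdm4, -0.13) passed the unadjusted threshold, against 7.92% of all genes. With the first DMSO library of DHX35-dTAG cells left out, Trp53 was at 0.11 and Mdm4 at -0.14, against -0.09 for Mdm4 with all 8. Mdm2, Cdkn1a, Bax and Phlda3 then turned from below to above 0, at 0.01, 0.03, 0.12 and 0.07. Trp53inp1 moved from 0.00 to -0.07. A level higher in both treated groups without overlap was found in 3.15% of all genes and a lower one in 2.82%, and in 1 (Trp53) and 0 of the 10 genes. Without TMM factors the value of Trp53 on DHX35 depletion was -0.08 where the median of all genes was -0.25, that is 0.16 above this median. The neighbouring gene Wrap53, which encodes a Cajal body protein, starts 104 bases from Trp53 on the minus strand and does not overlap it in the annotation used. The strand setting of the counting is not given in the sources used here. The processed pseudogene Trp53-ps held 6 to 31 counts per library, against 3597 to 5453 for Trp53.

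The regulators of p53 come next. Mdm2 (ENSMUSG00000020184.15, chr10:117688875-117710758, minus strand) encodes the ubiquitin ligase that both targets p53 and is induced by it. In DHX35-dTAG cells its level was 141 and 129.8 CPM in DMSO and 121 and 126 CPM in dTAG-13. In GPATCH1-dTAG cells it was 128 and 136 CPM in DMSO and 135 and 139 CPM in dTAG-13. The treated libraries were lower without overlap in DHX35-dTAG cells, whereas the groups overlapped in GPATCH1-dTAG cells. The log2 fold changes were -0.13 (95% interval -0.32 to 0.06) on DHX35 depletion and 0.06 (95% interval -0.13 to 0.24) on GPATCH1 depletion. Their difference of 0.19 (standard error 0.12) did not pass the threshold, with an adjusted p of 0.862 by edgeR. With the first DMSO library of DHX35-dTAG cells left out, the value for Mdm2 on DHX35 depletion was -0.07, and with the second left out it was -0.18 (adjusted p = 0.991 and 0.0679 by edgeR). On GPATCH1 depletion it lay between 0.02 and 0.09, the ends being the fits lacking the first and the second DMSO library of GPATCH1-dTAG cells.

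Mdm4 (ENSMUSG00000054387.13, chr1:132959484-133030561, minus strand) encodes the MDM2-related inhibitor of p53. Its level was 264 and 305 CPM in DMSO and 265 and 282 CPM in dTAG-13 in DHX35-dTAG cells. It was 326 and 323 CPM in DMSO and 288 and 307 CPM in dTAG-13 in GPATCH1-dTAG cells. The treated libraries were lower without overlap in GPATCH1-dTAG cells only, with a log2 fold change of -0.12 (95% interval -0.33 to 0.09), beside -0.06 (95% interval -0.27 to 0.15) on DHX35 depletion. The difference between the lines in this response was -0.06 (standard error 0.13, adjusted p = 0.925 by edgeR). The sign of 2 of these values turned with the DMSO library used. With the first DMSO library of DHX35-dTAG cells left out, Mdm4 was at -0.16 on DHX35 depletion (unadjusted p = 0.042, adjusted p = 0.991 by edgeR) and its responses differed by 0.04. With the second left out, they were 0.06 and -0.18. On GPATCH1 depletion Mdm4 was at -0.08 with the first dTAG-13 library of GPATCH1-dTAG cells left out. Without TMM factors this value was 0.04 where the median of all genes was 0.17, that is -0.13 relative to this median. The difference between the responses was then 0.34, where the median of all genes was 0.40. The annotation lists 14 transcripts for Mdm4, of which 5 are coding, 2 are targets of nonsense-mediated decay and 5 retain an intron, and 9 for Mdm2, of which 2, 1 and 3 fall in these classes. A shift between such isoforms would leave the gene counts the same where the number of reads stays the same. The pseudogene Gm29257 lies within Mdm4 on the opposite strand and held 10 to 35 counts, against 3095 to 5030 for Mdm4.

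Cdkn1a and Ccng1 represent the cell cycle arm of the response. Cdkn1a (ENSMUSG00000023067.14, chr17:29090976-29100727, plus strand) encodes p21, an inhibitor of cyclin-dependent kinases and the target most often used to read p53 activity. In DHX35-dTAG cells its level was 67.3 and 59.6 CPM in DMSO and 63.7 and 58.6 CPM in dTAG-13. In GPATCH1-dTAG cells it was 71.2 and 72.1 CPM in DMSO and 74.8 and 70.9 CPM in dTAG-13. The treated and control libraries overlapped in both lines. The log2 fold change was -0.05 (standard error 0.10, 95% interval -0.27 to 0.16, adjusted p = 0.872 by edgeR) on DHX35 depletion. On GPATCH1 depletion it was 0.03 (standard error 0.09, 95% interval -0.19 to 0.24, adjusted p = 1 by edgeR). The intervals end at 1.12-fold and 1.18-fold on the upper side. With the first DMSO library of DHX35-dTAG cells left out the first value was 0.04 (95% interval -0.14 to 0.22), and with the second left out -0.13. It was -0.11 and 0.01 with the first and the second dTAG-13 library left out.

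Ccng1 (ENSMUSG00000020326.7, chr11:40748552-40755311, minus strand) encodes cyclin G1, which recruits a phosphatase to MDM2. Its level was 229.7 and 228 CPM in DMSO and 197 and 234 CPM in dTAG-13 in DHX35-dTAG cells. In GPATCH1-dTAG cells the level was 248 and 255 CPM in DMSO and 239.8 and 255 CPM in dTAG-13. The groups overlapped in both lines, and the lowest of the 8 values was replicate 1 of DHX35-dTAG cells in dTAG-13. The log2 fold changes were -0.09 (95% interval -0.31 to 0.13) and -0.02 (95% interval -0.24 to 0.19). On DHX35 depletion the value of Ccng1 was 0.03 with the first dTAG-13 library of DHX35-dTAG cells left out and -0.21 with the second left out.

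**Figure D2:**
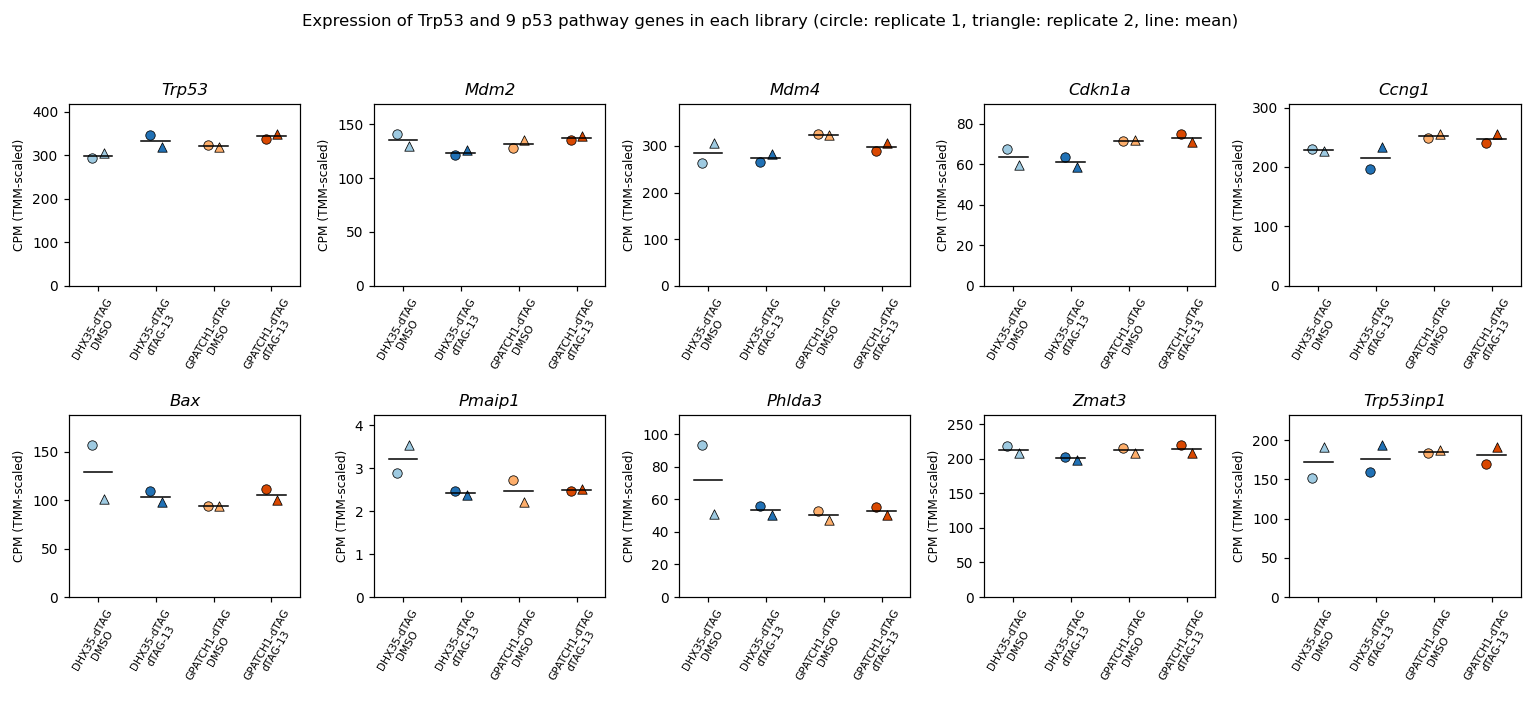
CPM on TMM-scaled library sizes (vertical axis, from 0) of Trp53 and 9 pathway genes in the 4 groups (horizontal axis), with replicate 1 as a circle, replicate 2 as a triangle and the mean of 2 as a line. Cdkn1a lay between 58.6 and 67.3 CPM in DHX35-dTAG cells and between 70.9 and 74.8 CPM in GPATCH1-dTAG cells. Bax and Phlda3 were highest in replicate 1 of DHX35-dTAG cells in DMSO, at 157 and 93.0 CPM.

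Bax, Pmaip1 and Phlda3 belong to the apoptotic arm. Bax (ENSMUSG00000003873.11, chr7:45461697-45466898, minus strand) encodes a protein that permeabilizes the outer mitochondrial membrane. In DHX35-dTAG cells its level was 157 and 102 CPM in DMSO and 109 and 97.9 CPM in dTAG-13. In GPATCH1-dTAG cells it was 93.8 and 94.3 CPM in DMSO and 111 and 101 CPM in dTAG-13. The treated libraries of GPATCH1-dTAG cells were higher without overlap, while in DHX35-dTAG cells a single DMSO library was far above the other 7. The log2 fold changes were -0.32 (standard error 0.17, adjusted p = 0.715 by edgeR) on DHX35 depletion and 0.17 (standard error 0.17, adjusted p = 1 by edgeR) on GPATCH1 depletion. The latter was 0.10 with the first and 0.24 with the second dTAG-13 library of GPATCH1-dTAG cells left out.

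Phlda3 (ENSMUSG00000041801.5, chr1:135766119-135769136, plus strand) encodes a small pleckstrin homology protein that restrains AKT signalling. Its level was 93.0 and 50.7 CPM in DMSO and 55.9 and 50.4 CPM in dTAG-13 in DHX35-dTAG cells. In GPATCH1-dTAG cells the level was 50.2 ± 4.0 CPM in DMSO (SD, n = 2; 819 and 536 counts, the second at 47.4 CPM) and 55.3 and 50.3 CPM in dTAG-13. As for Bax, the first DMSO library of DHX35-dTAG cells stood alone. The log2 fold changes were -0.43 (standard error 0.23, adjusted p = 0.715 by edgeR) and 0.07 (standard error 0.23, adjusted p = 1 by edgeR). On GPATCH1 depletion Phlda3 was at 0.16 with the first and -0.01 with the second DMSO library of GPATCH1-dTAG cells left out. The responses of Bax and Phlda3 in the lines differed by 0.49 (standard error 0.25) and 0.50 (standard error 0.33), neither of which passed the threshold (adjusted p = 0.862 for both by edgeR).

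The values of Bax and Phlda3 on DHX35 depletion rest on which DMSO library is used. Without replicate 1 they were 0.03 (95% interval -0.15 to 0.21) for Bax and 0.07 (95% interval -0.14 to 0.28) for Phlda3. Without replicate 2, the control rests on replicate 1 alone, and they were -0.59 for Bax and -0.80 for Phlda3, with adjusted p-values of 2.95e-05 and 3.87e-06 by edgeR. In that fit 4949 genes, or 28.8% of those tested, passed the threshold on DHX35 depletion, against 0 with both libraries. With a single control library, the spread behind these p-values comes from the other groups, and the lone library is assumed to vary like them. The differences between the responses were then 0.76 and 0.87, with adjusted p-values of 6.17e-05 and 5.8e-05 by edgeR, and 3592 genes (20.9%) passed the threshold. Without replicate 1 these differences were 0.14 for Bax and 0.00 for Phlda3 (adjusted p = 0.967 and 1 by edgeR). The coefficient of variation over the libraries was 19.1% for Bax and 26.0% for Phlda3 with all 8, and 6.74% and 5.87% without replicate 1. Bax and Phlda3 were the most GC-rich of the 10 genes, at 63.5% and 62.6% in their longest coding transcripts against 38.8% to 54.4%, and had the shortest of these transcripts, at 1100 and 1435 bases. The part of base composition and transcript length in these values was not tested. The predicted gene Gm45808 overlaps Bax on the same strand and held 0 counts in every library.

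Pmaip1 (ENSMUSG00000024521.8, chr18:66458533-66465565, plus strand) encodes the BH3-only protein NOXA and was the gene with the fewest reads, with 25 to 55 counts per library. Its level was 2.88 and 3.54 CPM in DMSO and 2.48 and 2.39 CPM in dTAG-13 in DHX35-dTAG cells, and 2.72 and 2.21 CPM in DMSO and 2.48 and 2.52 CPM in dTAG-13 in GPATCH1-dTAG cells. The treated libraries of DHX35-dTAG cells were lower without overlap, and the groups of GPATCH1-dTAG cells overlapped. The log2 fold changes were -0.40 (95% interval -0.93 to 0.12) and 0.01 (95% interval -0.52 to 0.53). The former was -0.54 with the first DMSO library of DHX35-dTAG cells left out and -0.23 with the second left out. The latter was 0.18 and -0.13 with the first and the second DMSO library of GPATCH1-dTAG cells left out.

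Zmat3 and Trp53inp1 are targets outside these arms. Zmat3 (ENSMUSG00000027663.12, chr3:32334792-32366014, minus strand) encodes a zinc finger protein that binds RNA and acts on splicing and mRNA stability. It varied least of the 10 genes over the 8 libraries, with a coefficient of variation of 3.56%. Its level was 218 and 208 CPM in DMSO and 203 and 198 CPM in dTAG-13 in DHX35-dTAG cells. In GPATCH1-dTAG cells it was 215 and 208 CPM in DMSO and 219 and 208 CPM in dTAG-13. The treated libraries were lower without overlap in DHX35-dTAG cells, with a log2 fold change of -0.09 (95% interval -0.26 to 0.09), beside 0.01 (95% interval -0.16 to 0.19) on GPATCH1 depletion. The value on DHX35 depletion was -0.05 with the first DMSO library left out.

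Trp53inp1 (ENSMUSG00000028211.11, chr4:11156431-11174379, plus strand) encodes a stress-induced partner of p53 with a role in autophagy. Its level was 152 and 192 CPM in DMSO and 159.6 and 193 CPM in dTAG-13 in DHX35-dTAG cells. In GPATCH1-dTAG cells the level was 184 and 187 CPM in DMSO and 170.0 and 191 CPM in dTAG-13. The groups overlapped in both lines, and the log2 fold changes were 0.04 (95% interval -0.26 to 0.34) and -0.04 (95% interval -0.34 to 0.26). On DHX35 depletion Trp53inp1 was at -0.12 with the first DMSO library of DHX35-dTAG cells left out and at 0.22 with the second left out (adjusted p = 0.991 and 0.0924 by edgeR). It was at -0.10 with the second dTAG-13 library left out.

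Read against all genes, separation of the 2 treated from the 2 control libraries was common. In DHX35-dTAG cells, 14.6% of all tested genes were higher and 14.1% lower in dTAG-13 without overlap, beside 1 (Trp53) and 3 (Mdm2, Pmaip1 and Zmat3) of the 10 genes. In GPATCH1-dTAG cells, 21.5% were higher and 20.3% lower, beside 2 (Trp53 and Bax) and 1 (Mdm4) of the 10 genes. For the difference between the responses of both lines, 0% of all genes passed the adjusted threshold and 3.91% the unadjusted one, and 0 of the 10 genes passed either. The adjusted p-values of the 10 genes for this difference lay between 0.862 and 0.943 by edgeR.

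Between the lines, whatever the treatment, Cdkn1a and Ccng1 were higher in all 4 libraries of GPATCH1-dTAG cells than in any of DHX35-dTAG cells. Cdkn1a was at 62.3 ± 4.0 CPM (SD, n = 4) in DHX35-dTAG cells and at 72.2 ± 1.8 CPM (SD, n = 4) in GPATCH1-dTAG cells. This log2 difference of 0.21 (standard error 0.06, 95% interval 0.07 to 0.36) had an unadjusted p of 0.00768 and an adjusted p of 0.18 by edgeR, and did not pass the threshold. Ccng1 was at 222 ± 17.2 and 249.6 ± 7.37 CPM (SD, n = 4), which is 0.17 on the log2 scale (standard error 0.07, adjusted p = 0.27 by edgeR). Mdm4 differed by 0.16 on the log2 scale (standard error 0.06, adjusted p = 0.288 by edgeR), with overlap between the lines. Bax, Phlda3 and Pmaip1 had values of -0.21, -0.26 and -0.18, with 95% intervals that include 0.

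These counts were read against the background of the line comparison. At an unadjusted p under 0.05, 3 of the 10 genes passed, against 15.3% of all genes, and at the adjusted threshold 0 passed, against 0.788% (129 genes). Levels without overlap, 4 libraries against 4, were found in 5.63% of all genes for higher and 6% for lower values in GPATCH1-dTAG cells, and in 2 and 0 of the 10 genes. With the first DMSO library of DHX35-dTAG cells left out, the difference for Cdkn1a was 0.26 (95% interval 0.15 to 0.36) and passed the threshold, with an adjusted p of 0.00405 by edgeR, in a fit that called 1013 genes (5.95% of those tested). It passed likewise with sample quality weights (0.25, adjusted p = 0.0128 by limma-voom, 757 genes called). Ccng1 was at 0.18 without this library, with an adjusted p of 0.0659 by edgeR, and Bax and Phlda3 were at -0.02 and -0.01. The value of Pmaip1 between the lines was -0.06 with the second DMSO library of DHX35-dTAG cells left out and -0.08 with that of GPATCH1-dTAG cells left out. The 2 lines differ in the tagged gene, in clone, in Gpatch1 and Dhx35 mRNA and possibly in culture, and these cannot be told apart. Marker levels by line stand beside these values. The embryonic stem cell markers summed to 6008 to 6409 CPM in DHX35-dTAG and 5730 to 5871 CPM in GPATCH1-dTAG cells, and the markers of differentiated cells to 18.4 to 19.8 and 20.3 to 24.3 CPM, both without overlap, while those of feeder cells overlapped at 3.25 to 5.76 and 2.56 to 3.43 CPM. Of the 10 embryonic stem cell markers, 1 passed the adjusted threshold between the lines, Utf1, lower by 0.49 on the log2 scale in GPATCH1-dTAG cells (adjusted p = 0.0305 by edgeR). The other 9 did not pass, and Nanog, Klf4 and Tfcp2l1 had values above 0, at 0.05, 0.23 and 0.04. Of the 6 tested markers of differentiated cells and the 2 tested markers of feeder cells, 0 passed. The part of these markers in the values of Cdkn1a and Ccng1 was not tested.

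**Figure D3:**
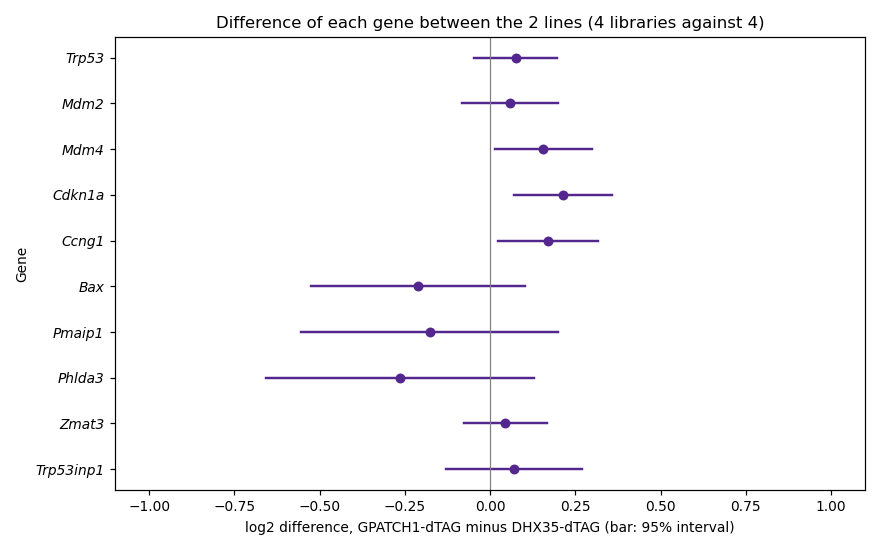
Log2 difference of each gene (vertical axis) between GPATCH1-dTAG and DHX35-dTAG cells (horizontal axis, log2 scale), 4 libraries against 4, from edgeR's fit with line and treatment. Points are estimates and bars 95% intervals. The intervals of Mdm4, Cdkn1a and Ccng1 lie above 0, and no gene passed the adjusted threshold.

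Promoter sequences were searched for p53 elements, and those of Cdkn1a and Ccng1 are shown first because the levels of both genes do not overlap between the lines. A link between the elements and these levels was not tested. The genes were listed as p53 and its targets or regulators, so their shares beside all windows are a description and no test. RefSeq promoter windows of GRCm38.p6, from 250 bases before to 50 after a transcription start, were found for 7 of the 10 genes (9 windows), and none for Pmaip1, Zmat3 and Trp53inp1. The p53 half-site, a decamer of 3 purines, C, A or T at 2 positions, G and 3 pyrimidines, reads the same on both strands. It occurred in the windows of Trp53, Mdm2, Cdkn1a, Ccng1 and Bax, that is in 5 of 9 windows, and in 8.36% of the 32851 windows of all genes. A pair of adjacent decamers with at most 1 base off this pattern occurred in 2 of the 9 windows (Cdkn1a and Ccng1) and in 0.0883% of all windows (29). The exact full element, with 2 half-sites 0 to 13 bases apart, occurred in the window of Cdkn1a alone among the 9, and in 0.0731% of all windows (24). The first decamer of the Cdkn1a pair and the second of the Ccng1 pair are themselves exact half-sites and are counted among those above. The pairs are in capitals with 20 bases on each side. That of Cdkn1a lies at chr17:29090928-29090947 on the plus strand, with its first base at position -51 from the transcription start of its window. Cdkn1a has 2 windows, and the other holds no half-site. The pair of Ccng1 lies at chr11:40755462-40755481 on the minus strand, at position -195 from the transcription start of its window.
Cdkn1a: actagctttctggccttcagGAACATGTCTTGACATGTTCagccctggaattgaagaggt
Ccng1: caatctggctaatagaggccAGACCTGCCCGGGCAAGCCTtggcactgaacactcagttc
The single half-sites of the other genes are given for comparison, in capitals with 15 bases on each side, at chr11:69580284-69580293 for Trp53, chr10:117710935-117710944 for Mdm2 and chr7:45467090-45467099 for Bax.
Trp53: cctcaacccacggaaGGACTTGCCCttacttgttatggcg
Mdm2: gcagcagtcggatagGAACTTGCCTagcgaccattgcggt
Bax: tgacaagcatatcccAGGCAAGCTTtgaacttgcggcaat
A match of letters is no evidence of binding, and elements outside these windows, such as those known in the first intron of Mdm2, were not searched.

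**Figure D4:**
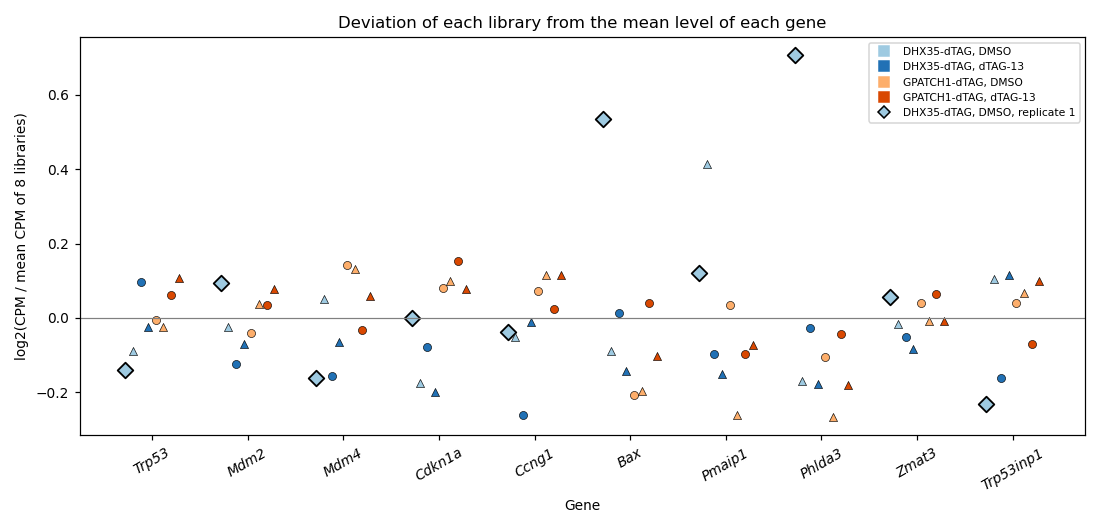
Log2 ratio of each library's CPM to the mean of 8 libraries (vertical axis) for each gene (horizontal axis), coloured by group, with the outlined diamond for replicate 1 of DHX35-dTAG cells in DMSO. The diamond is the highest point for Mdm2, Bax and Phlda3 and the lowest for Trp53, Mdm4 and Trp53inp1.

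The 10 genes did not move as one unit over the 8 libraries. Bax and Phlda3 had a Pearson correlation of log2 CPM of 0.97 over 8 libraries and of 0.75 over the 7 without the first DMSO library of DHX35-dTAG cells. Bax and Trp53inp1 ran opposite, at -0.83 and -0.73. Trp53 and Cdkn1a were at 0.35 and 0.47, and Trp53 and Mdm2 at -0.24 and 0.13. These values describe libraries that share groups and depth and are given without a test. Among 10562 genes with a mean of at least 5 CPM, those most like Cdkn1a over the 8 libraries were Gnas, Cyb5r1 and Eftud2 (Pearson correlations of 0.992, 0.980 and 0.966), and those most like Mdm2 were Tpcn2, Eif4a2 and Fgfr1op2 (0.967, 0.964 and 0.960).

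Compared per length, the genes covered a wide range of levels. Per kilobase of annotated exon, Trp53 was highest with 80.0 ± 4.8 CPM per kilobase (SD, 8 libraries), followed by Bax with 68.7 ± 13.1 and Ccng1 with 67.2 ± 5.5. Bax was above Ccng1 in 3 of the 8 libraries, and over the 7 without the first DMSO library of DHX35-dTAG cells it was at 64.3 ± 4.3 and Ccng1 at 67.4 ± 5.8 CPM per kilobase. Phlda3 (36.6 ± 9.5), Trp53inp1 (27.6 ± 2.5) and Mdm2 (26.0 ± 1.4) formed the middle. Mdm4 (19.9 ± 1.6), Cdkn1a (18.9 ± 1.7) and Zmat3 (18.3 ± 0.65) were close together, and Pmaip1 was far below at 0.971 ± 0.150 CPM per kilobase. The ranges over 8 libraries overlapped between most neighbours in this order, but not between Phlda3 and Trp53inp1, between Mdm2 and Mdm4 or between Zmat3 and Pmaip1.

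A wider list of 34 p53 targets, of which 33 were tested, was read in the same way. Fas, a death receptor, had 0 to 3 counts and was not tested. On DHX35 depletion 0 of 33 passed the adjusted threshold, with a median log2 fold change of 0.02 and 19 above 0, and on GPATCH1 depletion 0 of 33 passed, with a median of -0.02 and 15 above 0 (edgeR). At an unadjusted p under 0.05, 0 and 1 of 33 passed, against 5.39% and 2.97% of all genes. The 1 was Btg2, an antiproliferative target, with a log2 fold change of -0.39 (standard error 0.13, adjusted p = 1 by edgeR). Btg2 was at 26.6 and 28.2 CPM in DMSO and 22.7 and 19.0 CPM in dTAG-13 in GPATCH1-dTAG cells. On DHX35 depletion 7 of 33 targets were higher and 2 lower without overlap, against 14.6% and 14.1% of all genes. On GPATCH1 depletion 5 were higher and 8 lower, against 21.5% and 20.3%. Of these, the largest values on DHX35 depletion were 0.35 for Trp53cor1, the long non-coding RNA lincRNA-p21, and 0.31 for Gtse1 among the higher, and -0.22 for Pidd1 and -0.17 for Ercc5 among the lower. With the first DMSO library of DHX35-dTAG cells left out, Trp53cor1 was at 0.14, Gtse1 at 0.09 and Ercc5 at -0.10. With the second left out, Trp53cor1 was at 0.61 and Gtse1 at 0.57, of which only the latter passed the threshold (adjusted p = 1.82e-05 by edgeR). Pidd1 was at -0.34 and -0.11 with the first and the second dTAG-13 library left out. On GPATCH1 depletion they were 0.11 for Xpc, a damage recognition factor of excision repair, among the higher, and -0.39 for Btg2, -0.27 for Rrm2b and -0.22 for Polk, a translesion polymerase, among the lower. With the first dTAG-13 library of GPATCH1-dTAG cells left out, Xpc was at 0.06 and Rrm2b at -0.07, and Rrm2b was at -0.49 with the second left out.

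Of 19 genes for proteins that modify or bind p53 or MDM2, 0 passed the adjusted threshold in either line, and 1 and 0 passed the unadjusted one, against 5.39% and 2.97% of all genes. Their median log2 fold changes were 0.10 on DHX35 depletion and 0.02 on GPATCH1 depletion, with 12 and 13 of 19 above 0. With the first DMSO library of DHX35-dTAG cells left out, the median on DHX35 depletion was -0.02, with 7 of 19 above 0. Without overlap, 3 of 19 were higher and 0 lower on DHX35 depletion, against 14.6% and 14.1% of all genes. On GPATCH1 depletion 7 were higher and 2 lower, against 21.5% and 20.3%. Hipk2, a kinase that phosphorylates p53, was at a log2 fold change of 0.41 (standard error 0.16, unadjusted p = 0.0337, adjusted p = 0.715 by edgeR) on DHX35 depletion. Its levels were 23.4 and 34.7 CPM in DMSO and 39.7 and 37.8 CPM in dTAG-13, so the control replicates differed widely. It was at 0.16 with the first DMSO library left out and at 0.74 with the second left out (adjusted p = 4.9e-05 by edgeR). On GPATCH1 depletion the largest values without overlap were 0.19 for Wrap53 and 0.13 for the checkpoint kinase gene Atr. In the first DMSO library of DHX35-dTAG cells, 4 of the 19 regulators were above and 15 below the mean of the other 7 libraries, from 0.654 times this mean for Ep300, an acetyltransferase of p53, to 1.93 times for Cdkn2a, which encodes the MDM2 inhibitor ARF. Of the targets 14 were above and 19 below, from 0.497 times for Rps27l to 1.45 times for Dcxr. Of the p53 family, Trp73 was at 12.7 ± 1.1 CPM (SD, 8 libraries) with log2 fold changes of 0.13 and -0.02, and Trp63 had 0 to 3 counts and was not tested.

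**Figure D5:**
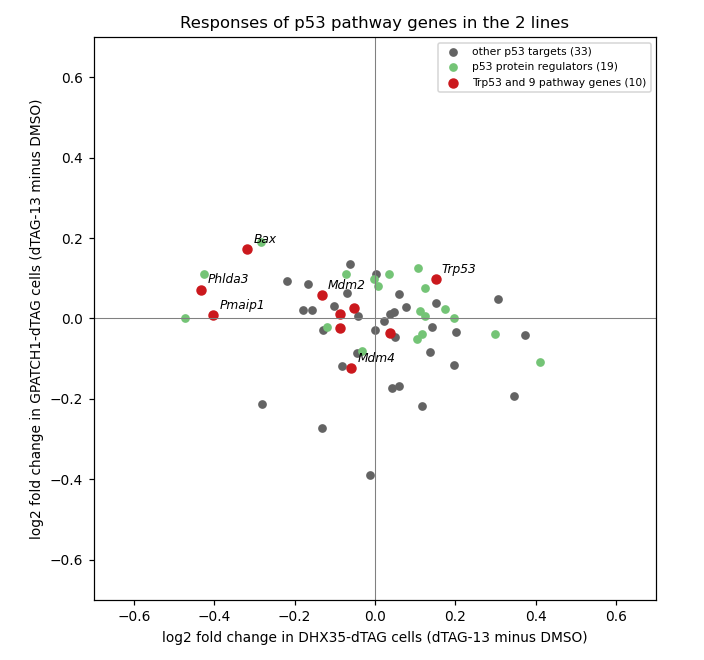
Log2 fold change on DHX35 depletion (horizontal axis) against that on GPATCH1 depletion (vertical axis) for the 10 genes (red), 33 other p53 targets (grey) and 19 regulators of p53 protein (green), 1 point per gene. The extremes on the horizontal axis are -0.47 for Cdkn2a and 0.41 for Hipk2, and no gene passed the adjusted threshold in either line.

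The values of both lists on DHX35 depletion also moved with the DMSO libraries of DHX35-dTAG cells. Without replicate 1, 0 of 33 targets and 0 of 19 regulators passed the adjusted threshold on DHX35 depletion, with medians of 0.03 and -0.02. Without replicate 2, 10 targets (7 higher, 3 lower) and 12 regulators (9 higher, 3 lower) passed, in the fit on a single control library that called 28.8% of all genes, with Rps27l at 1.03 and Cdkn2a at -0.94 as the extremes. Without TMM factors 1 gene of both lists passed on DHX35 depletion, Rpl11, a ribosomal protein gene, at -0.66 (adjusted p = 0.0441 by edgeR), where the median of all genes was -0.25 and 1.95% of them passed. Between the lines, 0 of the genes in either list passed the adjusted threshold with all 8 libraries (edgeR), against 0.788% of all genes, and 6 targets and 2 regulators passed the unadjusted one, against 15.3%. With the first DMSO library of DHX35-dTAG cells left out, Hipk2 was lower in GPATCH1-dTAG cells, with a log2 difference of -0.59 (adjusted p = 2.3e-05 by edgeR) and Prkdc, the catalytic subunit gene of a DNA repair kinase, higher by 0.24 (adjusted p = 0.0255 by edgeR). These were the only calls among the 33 targets and 19 regulators between the lines in that fit, which called 5.95% of all genes. With sample quality weights both passed as well, at -0.55 and 0.24 (adjusted p = 0.00109 and 0.0448 by limma-voom), in a fit that called 4.62% of all genes. Prkdc also passed without replicate 2 of that group, at 0.38 (adjusted p = 0.0487 by edgeR), where 0.961% of all genes (165) passed.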

How the data were processed

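The authors removed ribosomal RNA and built stranded libraries, and a spike-in of human DLD-1 RNA was present but not used here. Per the labels' processing notes, FastQC 0.11.9, Trim Galore 0.6.6, STAR 2.7.5c (mm10 and hg19) and DESeq2 1.26.0 were used. For each library the authors deposited 1 table of raw counts over 55291 gene symbols. The counting program, annotation and strand setting are not given in the sources used here.

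From these counts, groups were compared with edgeR 4.0.16 (R 4.3.3), by glmQLFit and glmQLFTest (TMM, filterByExpr on 4 groups, 1 term per group, all 8 libraries, Benjamini-Hochberg over 16371 genes, threshold 0.05). Line and treatment were fitted together for comparisons across both lines and between the lines. Standard errors are the log2 fold change over the root of F. The common dispersion of 0.0125 corresponds to a coefficient of variation of 11.2%. CPM used TMM-scaled library sizes without a prior, and correlations used log2 CPM with a prior count of 2. Positions and exon lengths came from GENCODE M21 (GRCm38), which held 53292 of the symbols. The tests were checked on simulated data. Alternatives were DESeq2 1.42.0, limma-voom 3.58.1 with sample quality weights, other scalings and filters, a replicate block, a robust prior, fits on only 4 libraries, and fits without each library in turn.

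The genes and lists were chosen with earlier results of these data known. Beside the 10 genes, named list genes were those past the adjusted threshold with all 8 libraries (0 genes) and, per depletion, the 3 largest rises and falls without overlap at a mean of at least 1 CPM. Others (Fas, Cdkn2a, Ep300, Dcxr, Rpl11, Rps27l, Prkdc, the embryonic stem cell markers and the p53 family) were named having seen their values. Raw counts of the replicates of a group differed beyond sampling noise (summed chi-square per gene 5.32 to 132). These values include Gm23935 and CT010467.1 and use no TMM factors, so they do not give the spread of a typical gene.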

Additional observations from a re-analysis of the deposited data

Results flagged for a closer look

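Over the 8 libraries, 3 of the 10 genes had a value far from the rest, judged by the gap to the nearest library divided by the whole range, for which the 95% critical value is 0.526. Phlda3 was flagged at 0.813 and Bax at 0.723, both for the high value in replicate 1 of DHX35-dTAG cells in DMSO. Ccng1 was flagged at 0.528, just past the critical value, for the low value in replicate 1 of DHX35-dTAG cells in dTAG-13. The 8 libraries span 4 groups, and chance alone flags about 1 in 20 such sets of values.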

How the results depend on the processing

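The log2 fold changes of the 10 genes in 5 comparisons kept their direction and side of the threshold in 446 of 470 values under 10 alternatives, with 22 changes of sign among uncalled values, 2 newly called and 0 reversed calls. With each library left out, 357 of 400 did, with 38 changes of sign and 5 newly called. Without TMM factors the median of all genes moved to -0.25 on DHX35 depletion, 0.17 on GPATCH1 depletion and 0.40 for the difference between the responses. The medians of the 10 genes were then -0.33, 0.18 and 0.49, with 319, 10, 179 and (across both lines) 13 genes called and 1 of the 10 genes, Phlda3 on DHX35 depletion (-0.66, or -0.41 relative to all genes). Relative to the median of all genes, Trp53 and Trp53inp1 kept their sign on DHX35 depletion.

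Numbers of genes called are given in the order DHX35 depletion, GPATCH1 depletion, difference between the responses, both lines, difference between the lines. They were 0, 0, 0, 0 and 129. Without the expression filter they were 345, 21, 140, 80 and 920. DESeq2 gave 1, 9, 4 and 227 for all but GPATCH1 depletion. Limma-voom gave 35 (GPATCH1 depletion), 9 (both lines) and 757 (lines), with 1 of the 10 genes, Cdkn1a, between the lines. With only the 4 libraries compared, 1 and 127 genes were called on the depletions. With each library left out in turn the counts ranged from 0 to 4949, 0 to 51, 0 to 3592, 0 to 8 and 27 to 1013, and those of the 10 genes from 0 to 2, 0 to 0, 0 to 2, 0 to 0 and 0 to 1. The cause of these moves was not tested.

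Same-numbered libraries had correlations of their deviations between 0.037 and 0.23, all above 0, which does not settle whether the replicate numbers pair the libraries. At an unadjusted p under 0.05, 8.08% of all genes passed on DHX35 depletion with the replicate block, against 5.39% without it (edgeR). With the replicate block, 2 genes were called for the difference between the responses and 151 between the lines, and 0 of the 10 genes in any comparison. Pmaip1, with at most 55 counts, had a standard error of 0.23 on either depletion, as had Phlda3 with 536 to 1259 counts.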
